A study of Rattus norvegicus with 6 samples.

Results

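The subject is a set of 28 genes of fatty acid and ketone body metabolism in the brain of SPORTS and wild type rats. They were chosen by name, with earlier results of these data known. The set holds 13 genes of fatty acid oxidation and ketone body use, 12 of fatty acid synthesis and transport, and the 3 peroxisome proliferator-activated receptors (PPARs). Every array probe whose transcript accession belongs to 1 of these genes was kept, which gave 32 probes of 30367 distinct probes on the array, and all 28 genes, of 15168 genes named on it, had at least 1. Brain RNA came from 6 sedentary males on the Wistar strain, at an age of 15 weeks. Of these rats, 3 carried the SPORTS genotype, a hyperactive mutant line, and the other 3 did not. Each rat gave 1 single-colour oligonucleotide array, the labels name no brain region, and a mixed tissue sample cannot tell fewer cells of a type from less RNA per cell.

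Signals are normalised log2 values, in which 0 is the 75th percentile of an array. A difference is the SPORTS mean less the wild type mean. Each probe hybridises with its own efficiency, so levels are compared between arrays for 1 probe and never between probes. All 6 arrays lay on 1 slide. Wild type replicates 1 and 2 were in its first row, and wild type replicate 3 and all SPORTS arrays were in row 2, so a difference within row 2 rests on 1 wild type rat. With the row as a term in the model (the row block), the difference equals that within row 2. Each array measured between 20323 and 23261 probes well above background, with 0 saturated spots. Markers of neurons, astrocytes and myelin were well above background. Markers of striatum were lower in SPORTS (8 of 8 tested passed, median -2.12), and those of meninges and fibroblasts were higher (7 of 8, median 0.74). Drd1 of the striatal list was well above background on 3 wild type arrays and 1 SPORTS array. Lum of the meningeal list was so on 2 wild type and 3 SPORTS arrays. Each therefore entered the test only through the group in which it was higher. A summed signal adds the tested markers of a list before log2, so bright markers weigh most in it. SPORTS replicate 1 stood apart, with a summed signal of cerebellar markers of 4.10 against 1.72 to 1.98 on the other arrays and of choroid plexus markers of 67.8 against 127.5 to 144.9. The part of these differences in tissue makeup in the results was not tested.

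The brain burns mostly glucose, but its astrocytes oxidise fatty acids and its neurons and glia take up ketone bodies during fasting or sustained effort. Long-chain fatty acids enter mitochondria as carnitine esters made by carnitine palmitoyltransferases, and are then shortened in repeated turns of beta-oxidation, each with a dehydrogenase, a hydratase, a second dehydrogenase and a thiolase step. Ketone bodies are turned back into acetyl-CoA by Bdh1, Oxct1 and Acat1 in turn. Fatty acid synthesis, desaturation and elongation supply membranes and myelin, and small fatty acid binding proteins carry their substrates inside cells.

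Of the 28 genes, 26 had a probe bright enough to be tested, and 7 of them differed between the lines. Bdh1, Acadl and Acadm of the oxidation and ketone genes were higher in SPORTS, and Acaa2 was lower. Of the synthesis and transport genes, Fabp7 was higher and Fabp3 and Cd36 were lower, while no member gene of synthesis, desaturation or elongation passed. The differences ran from 1.15-fold for Acadm to 1.34-fold for Bdh1, and to 1.72-fold for Cd36, a dim probe whose difference moved from -0.78 to -0.25 on the log2 scale with normexp background correction. The Cd36 probe entered the test only through the wild type arrays, where it was higher. Called members therefore lay on both sides of 0 in both role groups.

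In limma's moderated test, with Benjamini-Hochberg adjustment over all 20658 tested probes, 7 of 28 tested member probes passed (25%), 4 higher and 3 lower. The share called among all tested probes was 21.1% (11.1% higher and 10.1% lower), so the members' share is near that of the array. Counted per gene, with the brightest tested probe standing for a gene, 4 of 13 oxidation and ketone genes and 3 of 11 synthesis and transport genes passed, against 24.3% of the 11033 tested genes. The groups of arrays did not overlap for 10 of the 28 member probes, against 41.9% of all tested probes, and for 9 of the 26 member genes, against 47% of all tested genes. Under the row block 3 member probes passed, those of Bdh1, Fabp3 and Cd36, against 7.73% of all tested probes.

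Both role groups had medians near 0, and no test was made of their difference. The median difference was 0.03 over the 13 oxidation and ketone genes and 0.05 over the 11 tested synthesis and transport genes, and 0.0070 over all tested genes. Of the oxidation and ketone genes 8 lay above 0 and 5 below, and of the synthesis and transport genes 7 above and 4 below. Centred on each gene's mean over the 6 arrays, the median of the oxidation and ketone genes was -0.04, 0.02 and -0.03 on the wild type arrays and 0.05, 0.0086 and 0.03 on the SPORTS arrays. The same median of the synthesis and transport genes was -0.04, 0.03 and -0.0040 on the wild type arrays and -0.04, -0.02 and 0.11 on the SPORTS arrays. In both role groups the wild type and SPORTS arrays overlapped. Subtracting each array's median in place of its 75th percentile gave 0.0010 for the oxidation and ketone genes, and leaving out SPORTS replicate 3 gave -0.0093 for the synthesis and transport genes.

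**Figure D1:**
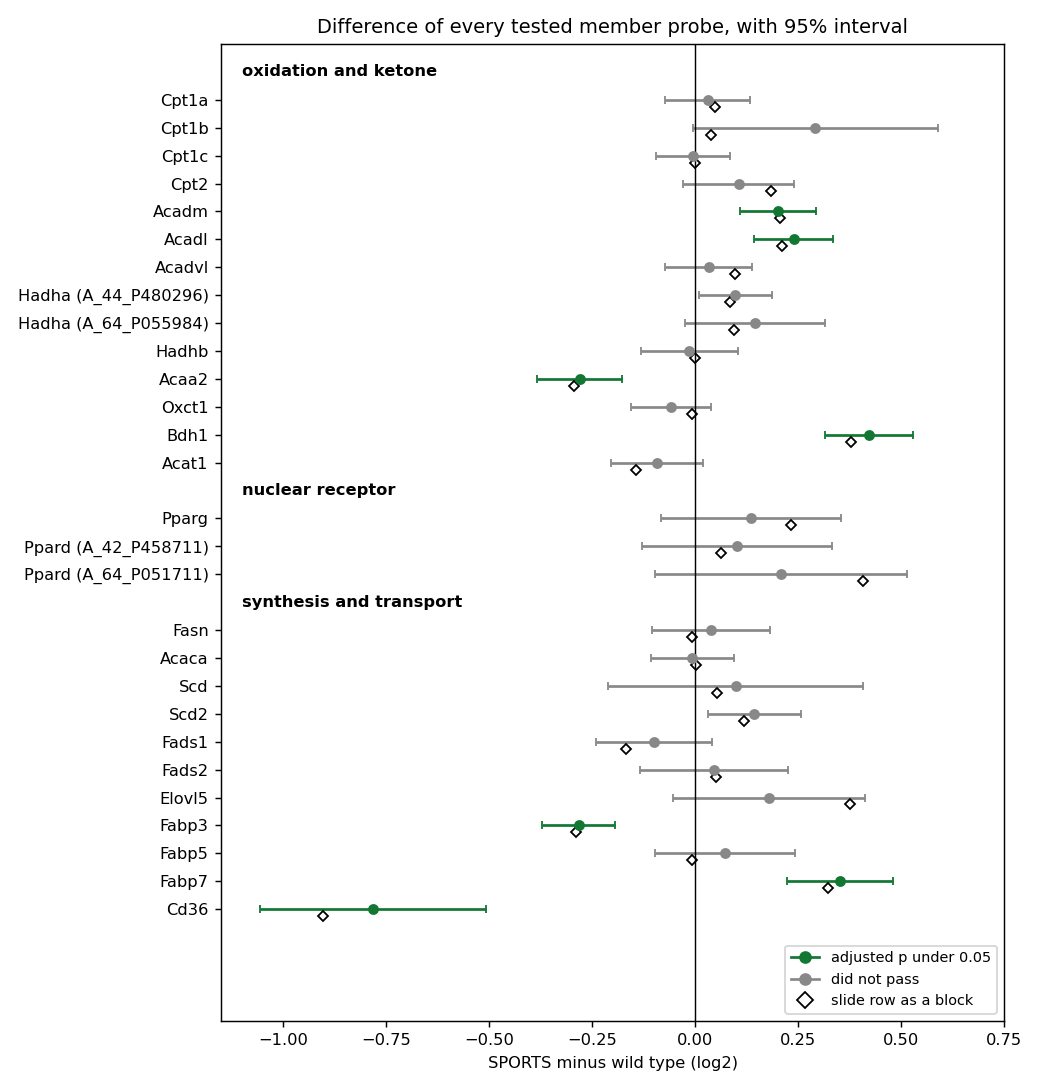
SPORTS minus wild type difference (log2, horizontal axis) of all 28 tested member probes, with bars for the 95% interval of the limma fit, in green where the adjusted p was under 0.05, and open diamonds for the fit under the row block. Most probes lie within 0.2 of 0, and the 7 that passed run from Cd36 at -0.78 to Bdh1 at 0.42.

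The carnitine shuttle genes did not pass. Cpt1a encodes the outer membrane palmitoyltransferase of liver and glia, Cpt1c a brain form in the endoplasmic reticulum, and Cpt2 the inner membrane enzyme. Cpt1a differed by 0.03 ± 0.04 (SE), with a 95% interval of -0.07 to 0.13 (adjusted p = 0.662). The 95% interval of Cpt1c ran from -0.10 to 0.09, and that of Cpt2 from -0.03 to 0.24. Cpt1b, the muscle form, was at -2.86, -2.75 and -2.43 in wild type replicates 1 to 3 and at -2.28, -2.44 and -2.45 in SPORTS. The wild type array in the same slide row as the SPORTS arrays was thus level with them, while both arrays of the first row were lower. Its difference of 0.29 ± 0.12 (SE) did not pass (adjusted p = 0.151), fell to 0.04 under the row block, and passed without wild type replicate 3 (0.42, adjusted p = 0.0280; adjusted p 0.0280 to 0.839 over the alternatives). A second Cpt1b probe was not well above background on any array.

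The acyl-CoA dehydrogenases, which start each turn of beta-oxidation, held 2 of the members' calls. Acadl, which prefers long chains, was at 1.21, 1.28 and 1.29 in wild type and at 1.53, 1.49 and 1.47 in SPORTS. All 3 SPORTS arrays were above all wild type arrays, and the rise of 0.24 ± 0.04 (SE) was 1.18-fold (adjusted p = 0.0109). It did not pass under the row block (0.21, adjusted p = 0.103; 0.00154 to 0.103 over the alternatives). Acadm, the medium-chain enzyme, was at 0.08, 0.15 and 0.11 in wild type and at 0.31, 0.28 and 0.34 in SPORTS. The groups again did not overlap, and the rise was 0.20 ± 0.04 (SE), 1.15-fold (adjusted p = 0.0169). Acadm did not pass under the row block, when dim probes were kept, or when wild type replicate 1 or 3 or SPORTS replicate 1 or 3 was left out, with differences of 0.17 to 0.22 over the alternatives (adjusted p 0.00453 to 0.108). Acadvl, the very-long-chain enzyme of the inner membrane, had a difference of 0.03 ± 0.04 that did not pass (95% interval -0.07 to 0.14, adjusted p = 0.645). That the dehydrogenases differ among themselves in response was not tested.

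Among the member genes of the later steps, 1 fell. Acaa2, the mitochondrial thiolase that releases acetyl-CoA at the end of each turn, was at -0.35, -0.29 and -0.30 in wild type and at -0.53, -0.62 and -0.63 in SPORTS. Every SPORTS array was below every wild type array, and the fall was 1.21-fold (-0.28 ± 0.04, SE; adjusted p = 0.00806). Under the row block the difference was -0.29 and did not pass (adjusted p = 0.0644; 0.00146 to 0.0644 over the alternatives). Acaa2 thus had the opposite sign to Acadm and Acadl, which act earlier in the same cycle. Hadha and Hadhb encode both subunits of the trifunctional protein, which carries out the steps after the first on long chains. The brighter Hadha probe had a difference of 0.10 ± 0.04 and the other 0.15 ± 0.07 (SE), and neither passed (adjusted p = 0.118 and 0.197). Both Hadha probes had all SPORTS arrays above all wild type arrays. Hadhb differed by -0.01 ± 0.05 (95% interval -0.13 to 0.10), with wild type at -1.36, -1.26 and -1.34 and SPORTS at -1.31, -1.40 and -1.29.

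Among the members of ketone body use, 1 rose. Bdh1, which interconverts the ketone bodies 3-hydroxybutyrate and acetoacetate, was at -1.66, -1.65 and -1.59 in wild type and at -1.27, -1.19 and -1.17 in SPORTS. The SPORTS arrays were all higher, and the rise of 0.42 ± 0.04 (SE) was 1.34-fold (adjusted p = 0.00248). This call was made in all 15 alternatives, with differences from 0.36 to 0.45, and stood under the row block (0.38, adjusted p = 0.0329). Oxct1, the rate-limiting enzyme of ketone body use, was at 2.38, 2.40 and 2.31 in wild type and at 2.27, 2.32 and 2.33 in SPORTS. These ranges overlap, and the difference of -0.06 ± 0.04 did not pass (95% interval -0.16 to 0.04, adjusted p = 0.361). Acat1, the thiolase that splits acetoacetyl-CoA, differed by -0.09 ± 0.05 (95% interval -0.20 to 0.02, adjusted p = 0.212). Of the 3 enzymes of the route from 3-hydroxybutyrate to acetyl-CoA, the first passed, and the other two had differences below 0.

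**Figure D2:**
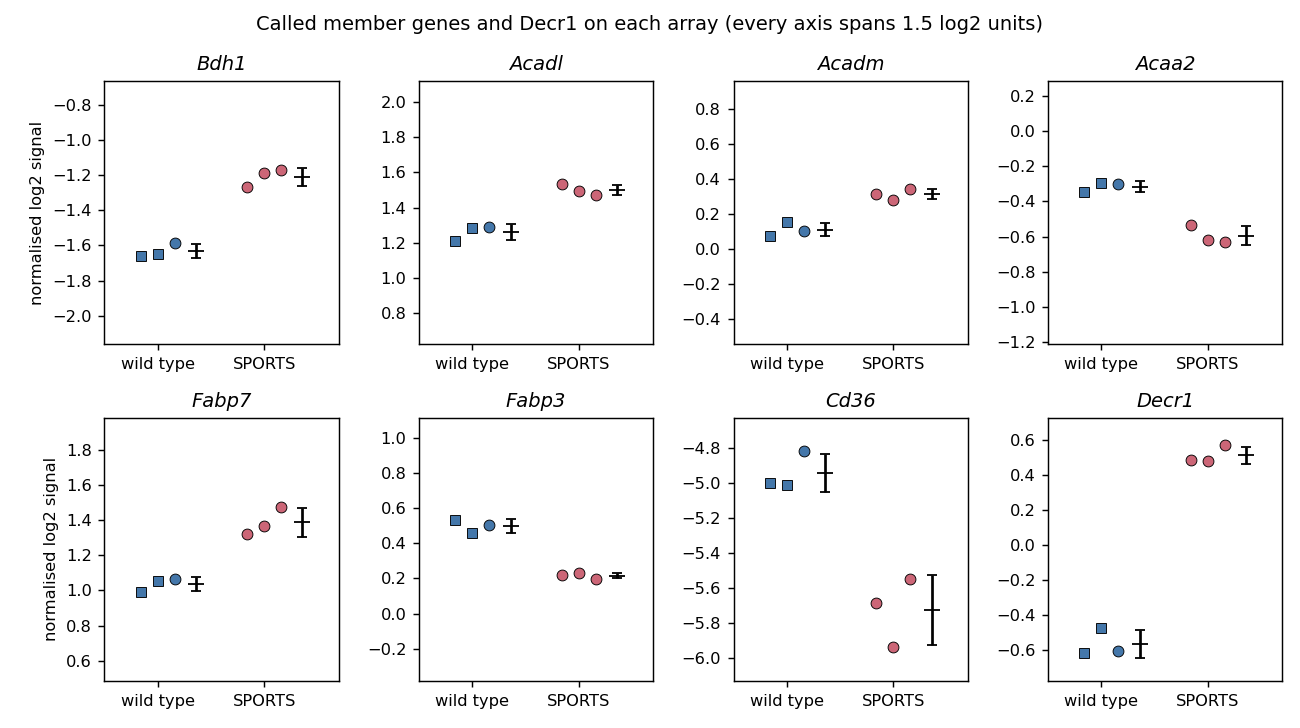
Normalised log2 signal (vertical axis, each panel spanning 1.5 log2 units) on each wild type (blue) and SPORTS (red) array for the 7 members that passed and for Decr1, another beta-oxidation gene. Squares mark arrays in slide row 1, circles those in row 2, and the bars show mean ± SD of 3 arrays. The groups do not overlap in any panel, and Decr1 shows the largest difference.

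Promoter windows are shown for Bdh1 and Acadm, the called oxidation and ketone genes for which a window was found. None was found for Acadl or Acaa2. Hadha, which did not pass, is shown because its window overlaps that of Hadhb. They are RefSeq windows of build GRCr8, running from 250 bases before to 50 after the start of a gene, read 5′ to 3′ on the strand of the gene. Bdh1 lies at chr11:82842587-82842886, minus strand, Acadm at chr2:245542815-245543114, minus strand and Hadha at chr6:31907551-31907850, plus strand. Capitals mark matches, on either strand, to the GC box GGGCGG, the cyclic AMP response element TGACGTCA, the CCAAT box CCAAT, the TATA box TATAAA and the nuclear receptor half-site AGGTCA.
Bdh1: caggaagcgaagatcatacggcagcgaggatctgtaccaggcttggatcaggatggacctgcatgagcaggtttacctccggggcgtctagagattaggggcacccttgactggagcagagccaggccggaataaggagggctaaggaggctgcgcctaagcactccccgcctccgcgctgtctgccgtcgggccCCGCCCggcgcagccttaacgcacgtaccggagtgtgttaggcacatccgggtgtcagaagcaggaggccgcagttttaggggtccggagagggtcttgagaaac
Acadm: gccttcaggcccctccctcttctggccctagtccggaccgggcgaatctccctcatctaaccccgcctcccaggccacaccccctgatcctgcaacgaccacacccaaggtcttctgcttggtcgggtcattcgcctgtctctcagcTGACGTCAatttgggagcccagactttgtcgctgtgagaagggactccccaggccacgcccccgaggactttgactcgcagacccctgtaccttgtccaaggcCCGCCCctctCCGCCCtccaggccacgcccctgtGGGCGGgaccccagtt
Hadha: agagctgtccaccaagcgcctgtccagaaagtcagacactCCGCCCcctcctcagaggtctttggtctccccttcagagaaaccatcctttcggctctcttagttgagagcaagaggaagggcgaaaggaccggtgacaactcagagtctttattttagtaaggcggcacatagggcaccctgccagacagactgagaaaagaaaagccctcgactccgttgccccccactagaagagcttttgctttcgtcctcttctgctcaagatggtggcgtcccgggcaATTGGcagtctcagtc
The Acadm window held 3 GC boxes at or after the start and 1 cyclic AMP response element 103 bases upstream of it. The Bdh1 window held 1 GC box, 55 bases upstream. The first 200 bases of the Hadha window are the reverse complement of the first 200 of the Hadhb window, since both genes start close together and run apart. Their mRNA differences of 0.10 and -0.01 are those given above, and no match is evidence of binding.

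The receptors that read fatty acids did not pass. PPARs are nuclear receptors that switch on oxidation (Ppara, Ppard) or storage genes (Pparg) when they bind fatty acids. Ppara, at -6.00, -5.30 and -5.64 in wild type and -5.40, -6.23 and -5.25 in SPORTS, was well above background on 2 of 3 arrays of each group and was not tested. Pparg differed by 0.14 ± 0.09 (SE; 95% interval -0.08 to 0.35, adjusted p = 0.340). The 2 Ppard probes differed by 0.10 ± 0.09 and 0.21 ± 0.12 (adjusted p = 0.497 and 0.299). These probes were dim, and the higher of the Ppard values moved to 0.41 under the row block (adjusted p = 0.169). The 95% interval of that probe ran from -0.10 to 0.51.

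The member genes of fatty acid synthesis itself did not pass. Fasn, the synthase itself, was at 2.24, 2.38 and 2.38 in wild type and at 2.32, 2.35 and 2.45 in SPORTS, a difference of 0.04 ± 0.06 (SE; 95% interval -0.10 to 0.18, adjusted p = 0.691). Acaca, which makes the malonyl-CoA that the synthase uses, differed by -0.0070 ± 0.04 (95% interval -0.11 to 0.09). The groups overlapped for both genes. Acacb, whose malonyl-CoA restrains carnitine palmitoyltransferases, was not well above background on any array (-8.11 to -6.81), so no difference is given.

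The member genes of desaturation and elongation did not pass either. Fads1 and Fads2, genes that lie close together and encode the front-end desaturases of polyunsaturated fatty acids, differed by -0.10 ± 0.06 and 0.05 ± 0.07 (SE; adjusted p = 0.276 and 0.710). Elovl5, which elongates polyunsaturated chains, differed by 0.18 ± 0.09 and by 0.38 under the row block (adjusted p = 0.245 and 0.0535). Wild type replicate 3, the only wild type array in row 2, was at -4.10 for Elovl5, and the other 5 arrays were between -3.85 and -3.67. Scd2, the main stearoyl-CoA desaturase gene of rodent brain, was at 4.64, 4.72 and 4.72 in wild type and at 4.78, 4.84 and 4.89 in SPORTS. All SPORTS arrays were above all wild type arrays, but the difference of 0.14 ± 0.05 did not pass (adjusted p = 0.0809), except with a trended and robust variance model (adjusted p = 0.0256; 0.0256 to 0.362 over the alternatives). Its paralogue Scd was at -1.37, -1.29 and -1.26 in wild type and at -1.35, -1.36 and -0.92 in SPORTS. The difference of 0.10 ± 0.13 rests on SPORTS replicate 3, and without that array it was -0.05 (adjusted p = 0.599). Scd and Scd2 are similar in sequence, and whether their probes cross-react was not tested.

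SPORTS replicate 3 was the highest of the 3 SPORTS arrays for 8 of the 11 tested synthesis and transport genes. Over all tested genes it was the highest for 33.9%, and for the oxidation and ketone genes for 6 of 13. Besides Scd, it was at -2.44 for Fads2, against -2.70 and -2.63, and at 3.95 for Fabp5, against 3.76 and 3.78. Without it the difference of Fads2 was -0.03 (adjusted p = 0.699). On the same array the summed signal of blood markers was the lowest of the 6 arrays, at 79.3 against 96.6 to 138.4, and that of myelin markers was 203.5, within the range of 188.2 to 218.3 of the others. The part of these in the values of SPORTS replicate 3 was not tested.

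**Figure D3:**
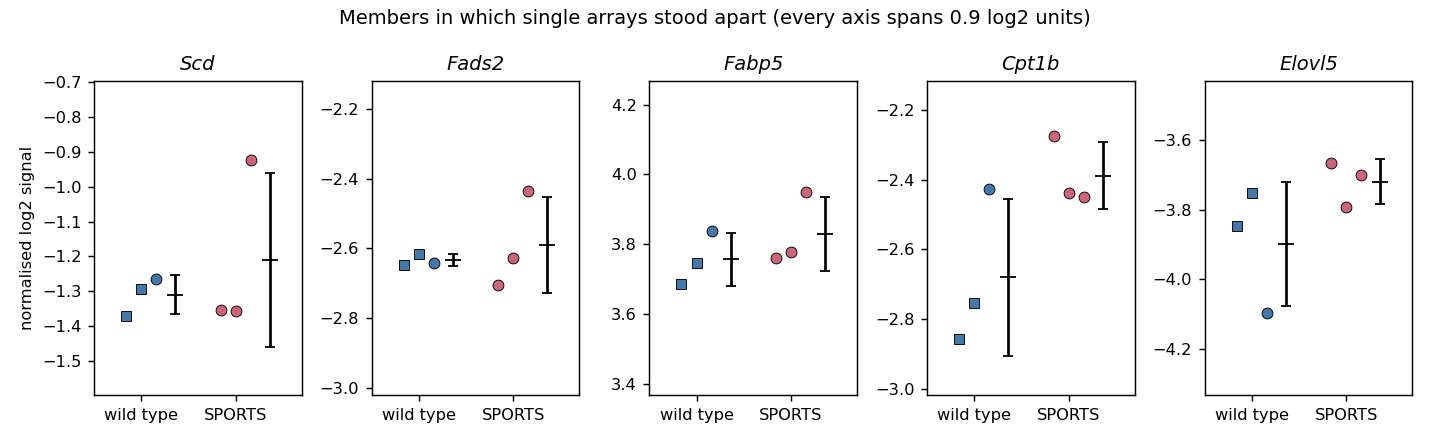
Normalised log2 signal (vertical axis, each panel spanning 0.9 log2 units) of 5 members on each wild type (blue) and SPORTS (red) array, with squares for slide row 1, circles for row 2 and bars for mean ± SD of 3 arrays. SPORTS replicate 3, the right-hand red circle, is the highest array for Scd, Fads2 and Fabp5, and the wild type circle is high for Cpt1b and low for Elovl5.

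The fatty acid carriers held 3 of the 7 calls and moved apart. Fabp7, the binding protein of astrocytes and radial glia, was at 0.99, 1.05 and 1.07 in wild type and at 1.32, 1.37 and 1.48 in SPORTS. The groups did not overlap, and the rise of 0.35 ± 0.05 (SE) was 1.28-fold (adjusted p = 0.00804). It did not pass under the row block (0.32, adjusted p = 0.0827; 0.000721 to 0.0827 over the alternatives). Of the astrocyte markers 3 of 8 tested rose and 0 fell (median 0.17), with a summed signal of 173.8 to 192.1 in wild type and of 197.4 to 205.2 in SPORTS. Under the row block 0 astrocyte markers passed, and without it 12.9% of all tested genes were higher. Sox9 had no tested probe. The part of astrocytes in the rise of Fabp7 was not tested.

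Fabp3, the binding protein of neurons and of heart muscle, went the other way. It was at 0.53, 0.46 and 0.50 in wild type and at 0.22, 0.23 and 0.20 in SPORTS. All SPORTS arrays were lower, with a spread between them of 0.02 (SD), and the fall was 1.22-fold (-0.28 ± 0.04, SE; adjusted p = 0.00483). The call was made in all 15 alternatives, with differences from -0.31 to -0.26, and stood under the row block (-0.29, adjusted p = 0.0483). Among the neuronal markers 2 of 7 tested fell and 1 rose (median -0.10), and under the row block 0 passed. Their summed signal ran from 54.7 to 56.4 on wild type arrays and from 52.3 to 52.7 on SPORTS arrays. Their part in the fall of Fabp3 was not tested. Fabp5, the third brain form, had a difference of 0.07 ± 0.07 that did not pass (95% interval -0.10 to 0.24, adjusted p = 0.513).

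Cd36, a fatty acid receptor and scavenger receptor of endothelium and macrophages, was lower in SPORTS. Its brighter probe was at -5.00, -5.01 and -4.82 in wild type and at -5.68, -5.94 and -5.55 in SPORTS, where it was well above background on 2 of 3 arrays. The groups did not overlap, and the difference was -0.78 ± 0.11 (SE), a 1.72-fold fall (adjusted p = 0.00700). This probe entered the test only through the wild type arrays, the group in which it was higher. The alternative that asks for signal well above background on all 6 arrays therefore left it out. It passed in each of the other 14 alternatives, but its size is uncertain because the signal was near background. With normexp background correction the fall was 0.25 on the log2 scale, less than those of Acaa2 and Fabp3 (adjusted p = 0.0272; 0.00112 to 0.0378 over the alternatives). The second Cd36 probe was at or near background on all 6 arrays. Among the microglia markers 1 of 8 fell (Tmem119) and 0 rose, with a summed signal of 16.7 to 18.1 in wild type and of 16.2 to 17.7 in SPORTS. Of the endothelial and mural markers 1 of 8 rose and 1 fell, with summed signals of 5.71 to 6.39 and 6.07 to 6.21. Of the 6 adipocyte markers 2 were tested, and Cfd did not pass. Adipoq fell, but did not pass under the row block. It was well above background on 3 wild type arrays and 1 SPORTS array, so it entered the test only through wild type. Lep and Cidec were not well above background on any array. The summed signal of the 2 tested adipocyte markers, most of it that of Cfd, ran from 0.332 to 0.344 on wild type arrays. On SPORTS arrays it ran from 0.284 to 0.297. The part of any of these cell types in the fall of Cd36 was not tested.

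The windows of the 3 carriers that passed show how unlike their starts are, from the GC-rich window of Fabp3 (65.0% G and C) to that of Cd36 (45.7%). Capitals mark the same motifs as above. Fabp7 lies at chr20:37669356-37669655, plus strand, Fabp3 at chr5:147935875-147936174, plus strand and Cd36 at chr4:18246332-18246631, plus strand, in build GRCr8.
Fabp7: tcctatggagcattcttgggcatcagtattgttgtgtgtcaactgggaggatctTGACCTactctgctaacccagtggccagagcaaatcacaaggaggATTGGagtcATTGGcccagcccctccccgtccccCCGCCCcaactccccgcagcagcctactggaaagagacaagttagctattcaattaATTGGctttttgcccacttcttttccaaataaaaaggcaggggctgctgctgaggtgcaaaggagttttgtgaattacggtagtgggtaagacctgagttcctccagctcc
Fabp3: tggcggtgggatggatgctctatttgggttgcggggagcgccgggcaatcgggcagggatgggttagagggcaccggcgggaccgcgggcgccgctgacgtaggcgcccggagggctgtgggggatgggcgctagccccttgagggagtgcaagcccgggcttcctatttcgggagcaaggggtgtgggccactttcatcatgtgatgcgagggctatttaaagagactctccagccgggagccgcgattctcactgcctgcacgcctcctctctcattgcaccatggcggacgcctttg
Cd36: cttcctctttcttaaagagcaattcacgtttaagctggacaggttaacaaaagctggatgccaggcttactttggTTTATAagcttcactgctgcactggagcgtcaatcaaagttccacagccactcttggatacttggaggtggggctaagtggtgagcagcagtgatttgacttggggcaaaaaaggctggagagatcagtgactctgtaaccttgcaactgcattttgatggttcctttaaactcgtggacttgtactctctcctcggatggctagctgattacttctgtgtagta
The Fabp7 window held 1 nuclear receptor half-site, 196 bases upstream, 1 GC box and 3 CCAAT boxes, all on the reverse strand. The Fabp3 window held none of the 5 motifs, and that of Cd36 only a TATA box match 175 bases upstream on the reverse strand.

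RefSeq windows were found for 20 of the 28 members. The GC box was in 12 of the 20, against 34.9% of all 27457 windows of the same length, searched on both strands. The 12 include both Hadha and Hadhb, and the Hadha box, 210 bases upstream, lies in the stretch that their windows share. The half-site AGGTCA was in 4 (Acadvl, Hadhb, Acacb and Fabp7), against 15.7% of all windows, and the cyclic AMP response element TGACGTCA in 2 (Acadm and Elovl5), against 1.91%. The CCAAT box was in 7 and the TATA box in 2, against 37.7% and 14.3% of all windows. The PPAR element, a direct repeat of the half-site with 1 base between, was in no member window and in 0.0583% of all windows. The sterol response element TCACNCCAC was in no member window and in 1.13% of all windows. A match is a description of letters only.

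Other genes of the same pathways, taken from lists written with earlier results of these data known, gave larger single differences than the members. Of 83 tested pathway genes, 18 were higher and 9 lower in SPORTS (32.5%, against 24.3% of all tested genes), and under the row block 5 were higher and 3 lower (8.34% of all tested genes passed there). Their median difference was 0.04. Against the same 24.3%, the share called was 26.9% in beta-oxidation, 29.4% in synthesis and elongation and 21.4% in regulators and PPAR targets. It was 50% of the 8 ketone body genes and 44.4% of those of activation, uptake and lipolysis.

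In beta-oxidation 5 of 26 tested genes rose and 2 fell (median 0.04). Of the other acyl-CoA dehydrogenase genes in this list, named after their values were seen, Acads, for short chains, rose by 0.22 ± 0.03 (SE; adjusted p = 0.00767), but did not pass under the row block (adjusted p = 0.0711), and Acad9, Acad11 and Acadsb had differences of -0.10, 0.14 and 0.02 that did not pass. Echs1, the short-chain enoyl-CoA hydratase, fell by 0.17 on the log2 scale (adjusted p = 0.0294), and did not pass under the row block, when dim probes were kept or with any 1 array left out (adjusted p 0.00658 to 0.110 over the alternatives). Decr1, the mitochondrial 2,4-dienoyl-CoA reductase that prepares polyunsaturated fatty acids for oxidation, was at -0.62, -0.47 and -0.60 in wild type and at 0.49, 0.48 and 0.57 in SPORTS. All SPORTS arrays were above all wild type arrays, and the rise of 1.08 ± 0.05 (SE) was 2.11-fold (adjusted p = 0.000254). It passed in all 15 alternatives, with differences from 1.01 to 1.12. Acot2, a mitochondrial acyl-CoA thioesterase with close paralogues, rose by 0.31 ± 0.04 on its brighter probe and differed by 0.0033 on the other (adjusted p = 0.00324 and 0.984). Eci2, an isomerase for unsaturated chains, rose by 0.24 ± 0.04, which did not pass under the row block (adjusted p = 0.0917) or without SPORTS replicate 2 or 3. Crot, the peroxisomal carnitine octanoyltransferase, fell by 0.42 on the log2 scale, from 0.05 ± 0.05 to -0.37 ± 0.04 (SD, n = 3 each; limma adjusted p = 0.00242), and passed in all 15 alternatives.

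Of 8 ketone body genes 2 rose and 2 fell (median 0.09). The monocarboxylate transporter genes Slc16a1 and Slc16a7, which carry lactate and ketone bodies, moved apart. Slc16a1 rose by 0.35 ± 0.04 and passed in all 15 alternatives (adjusted p = 0.00494, and 0.0472 under the row block). Slc16a7, the neuronal form, fell by 0.33 on the log2 scale (adjusted p = 0.0271), and its difference was -0.21 with normexp. Aacs, which uses acetoacetate for lipid synthesis, fell by 0.24 on the log2 scale (adjusted p = 0.0379). Neither passed under the row block (adjusted p = 0.200 for Slc16a7 and 0.269 for Aacs) or when dim probes were kept. The call of Slc16a7 also ended with normexp and without wild type replicate 3 or any 1 SPORTS array, and that of Aacs without wild type replicate 1 or 2 or SPORTS replicate 1 or 2.

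In synthesis and elongation 4 of 17 tested genes rose and 1 fell (median 0.07). Hacd1, a dehydratase of chain elongation, rose by 0.73 ± 0.06 (SE), 1.66-fold (adjusted p = 0.00144). Mecr, the enoyl reductase of mitochondrial fatty acid synthesis, fell 1.61-fold, from -1.50 ± 0.07 to -2.19 ± 0.07 (SD, n = 3 each; limma adjusted p = 0.00104). Both passed in all 15 alternatives. Elovl6, which elongates saturated chains, rose by 0.33 ± 0.04 on its brighter probe, but its second probe had a difference of -0.06 that did not pass (adjusted p = 0.00430 and 0.392). Thrsp, a lipogenesis regulator, rose by 0.47 ± 0.10 (adjusted p = 0.0248). Under the row block Elovl6 and Thrsp did not pass (adjusted p = 0.0520 and 0.184), and Thrsp also lost its call when dim probes were kept and without any 1 wild type array or SPORTS replicate 1.

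Of 18 tested genes of activation, uptake and lipolysis 6 rose and 2 fell (median 0.04). Slc27a2, a very-long-chain acyl-CoA synthetase and transporter gene, was at -2.77, -1.92 and -2.20 in wild type and at -1.33, -1.30 and -1.28 in SPORTS, a rise of 0.99 ± 0.21 (SE; adjusted p = 0.0238). Lpl, the lipoprotein lipase gene, fell by 0.57 on the log2 scale (adjusted p = 0.00434). Plin2, a lipid droplet coat gene, and Slc27a1, a fatty acid transporter gene, rose by 0.30 ± 0.05 and 0.27 ± 0.06. Under the row block none of the 4 passed (adjusted p = 0.171 for Slc27a2, 0.0508 for Lpl, 0.118 for Plin2 and 0.177 for Slc27a1). Slc27a2 also lost its call when dim probes were kept and without wild type replicate 3 or any 1 SPORTS array. Slc27a1 lost it when they were kept and without wild type replicate 1 or 2 or SPORTS replicate 1 or 2, and Plin2 without SPORTS replicate 3.

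Of 14 tested regulators and PPAR targets 1 rose and 2 fell (median 0.01). Rxrg, a retinoid X receptor gene of the family that pairs with PPARs, was at 0.80, 0.56 and 0.67 in wild type and at -0.46, -0.41 and -0.49 in SPORTS, a 2.19-fold fall (-1.13 ± 0.07, SE; adjusted p = 0.000420) that passed in all 15 alternatives. Rxrg is known for its expression in striatum, whose 8 tested markers had summed signals of 23.4 to 27.6 on wild type arrays and of 6.87 to 7.83 on SPORTS arrays. Their part in the fall of Rxrg was not tested. Prkaa1, a catalytic subunit of AMP-activated kinase, rose by 0.29 ± 0.04 and passed in all 15 alternatives, with a difference of 0.18 under normexp. Ppargc1b, a coactivator of mitochondrial genes, fell by 0.19 on the log2 scale (adjusted p = 0.0389). It did not pass under the row block (adjusted p = 0.159), when dim probes were kept, or with 1 array left out, unless that was wild type replicate 2.

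**Figure D4:**
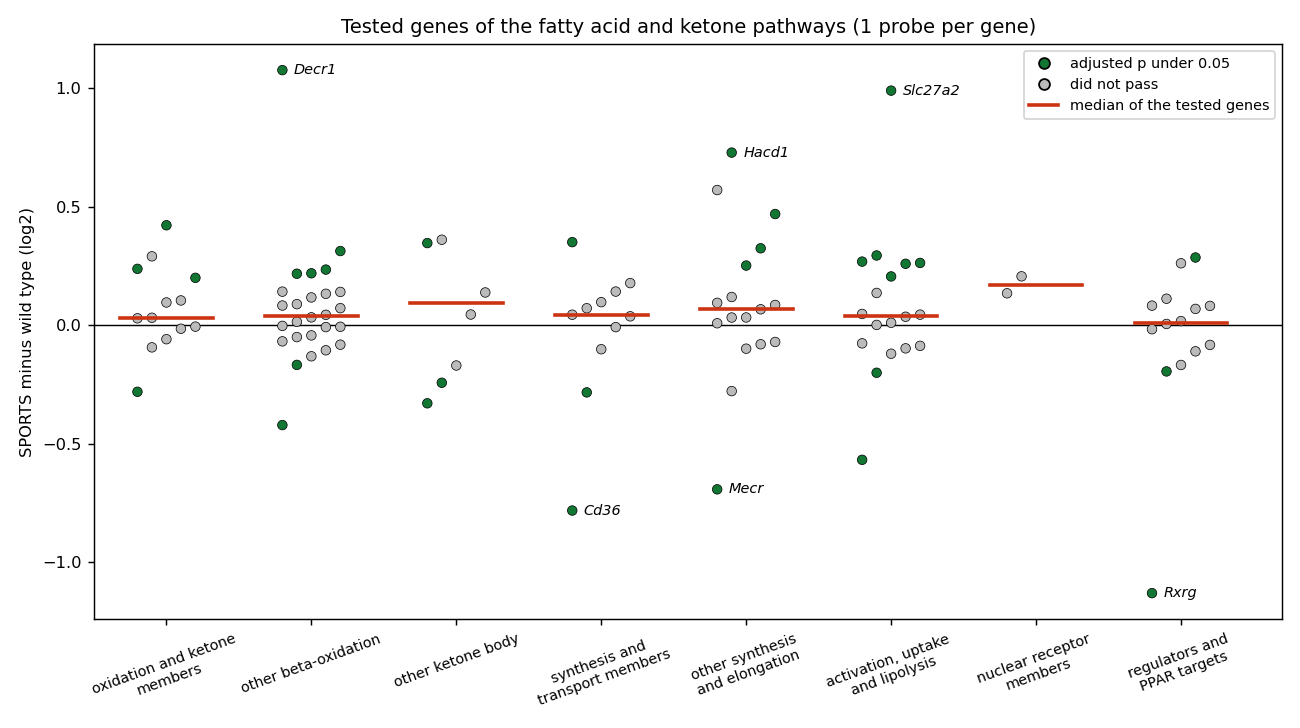
SPORTS minus wild type difference (log2, vertical axis) of each tested gene of the member role groups and of the other pathway lists, 1 probe per gene, in green where the adjusted p was under 0.05, with a red line at the median of each list. The medians lie between 0.01 and 0.17, and genes more than 0.6 from 0 are named (1 ketone body gene is counted in its median but not drawn), led by Decr1 at 1.08 and Rxrg at -1.13.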

How the data were processed

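Brain RNA of 3 SPORTS and 3 wild type rats was labelled with Cy3 and hybridised to 1 Agilent array per rat. Per the file headers, the deposited intensity values are spot brightness after background subtraction and detrending within each array, and Agilent Feature Extraction 10.10.1.1 is named in the submitters' processing notes. The authors also deposited a joint table holding the same intensities multiplied by a constant for each array (1.38 to 1.47). No source used here says how those constants were chosen.

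Of 62976 spots, 58717 were not controls. Outlier-flagged values (3075) were left out, spots of a probe were averaged as log2, and each array's 75th percentile (1530 to 1628 before log2) was subtracted. Tested probes (20658) had over 0.5 of their spots well above background on every array of a group. Symbols came from matching transcript accessions to RefSeq (13090 tested probes, 11033 genes). Array positions are on an older build than RefSeq, so none is given. The fit used limma 3.58.1 in R 4.3.3, moderated and two-sided, at an adjusted p of 0.05, and gave each SE and 95% interval. The procedure was tested on simulated data. The number of arrays limits the precision.

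Members and lists were chosen with earlier results of these data known. Named were all members and, per pathway list, up to 4 called genes with the largest difference whose groups do not overlap. For 1 gene of the ketone body list the values are not reported here. Adipoq, Cfd, Tmem119, Drd1 and Lum were named after their values were seen. Normexp, with offset 50, was run on median spot brightness. There were 15 alternatives (quantile normalisation, median shift, normexp, the joint table, outlier spots kept, 2 filters, a trended robust variance, the slide row as a term and 6 with 1 array left out), and, for medians, the mean of a gene's probes. Of lists not described with a result, oligodendrocyte markers had 4 of 10 tested higher and 0 lower, oligodendrocyte precursor, choroid plexus, blood and cerebellar markers 0 called, and ependymal markers 1 of 4 lower.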

Additional observations from a re-analysis of the deposited data

How the results depend on the processing

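No paired analysis was possible because the sample titles of the 2 groups have 1 number in common, and the replicate numbers used here follow the order of deposit and only name the samples. Over all probes 4364 passed, 2342 without the filter on dim probes, 1597 under the row block and 2551 to 3194 with 1 array left out. Of the member probes 7 passed, 3 with the block and 6 to 7 with 1 array left out. Of the pathway genes 27 passed, 16 without the filter, 8 with the block and 15 to 21 with 1 array left out (15 without SPORTS replicate 2, 17 without SPORTS replicate 3). The median of the oxidation and ketone genes was 0.0010 with the median shift. Fewer residual samples follow from the block and from leaving out an array by construction, and more probes tested from dropping the filter; other causes were not tested.

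Members whose sign changed did not pass on either side, and the cause was not tested. Cpt1a was -0.0013 with the median shift. Cpt1c was 0.013 with quantile normalisation, 0.0046 with the joint table and -0.021 to 0.017 with 1 array left out. With 1 array left out Acadvl ranged from -0.00019 to 0.052, Hadhb from -0.035 to 0.020, Fasn from -0.0084 to 0.065, Acaca from -0.027 to 0.017, Scd from -0.046 to 0.17 and Fads2 from -0.031 to 0.10. Under the row block Hadhb was 0.00029, Fasn -0.0070, Acaca 0.0023 and Fabp5 -0.0089. Acaca was 0.0022 with normexp and 0.0026 with the joint table. The 7 called members had the same sign in every alternative that tested them.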
